A study of Saccharomyces cerevisiae with 8 samples.

Results

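Large-subunit ribosomal protein genes encode the proteins of the 60S particle of the budding yeast ribosome. Members were all genes of the RefSeq R64 annotation named RPL with a number and an optional copy letter A or B, plus the ribosomal stalk genes RPP0, RPP1A, RPP1B, RPP2A and RPP2B. Genes could be placed on 8 of 16 nuclear chromosomes (II, V and XI to XVI), where deposited positions roughly match that annotation. The possible error of this placement is given below. These 8 chromosomes hold 45 of 81 such genes, among 3432 of 6002 protein-coding genes. The other 36 were not analysed here.

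Cells of strain AM1003, labelled WT, carried the HO endonuclease under a galactose promoter (GAL::HO), in 6 h and 0 h samples alike. The strain is known as a disome of chromosome III built to study break-induced replication. The labels give no further genotype and are silent on whether replicates were separate cultures, so that p-values measure only the spread between these libraries, which may be technical. Chromatin was immunoprecipitated with an Rpb1 antibody (Rpb1 is the large catalytic subunit of RNA polymerase II) from cells given 2% galactose for 6 h (2 libraries) and from untreated cells in raffinose medium, called 0 h (2 libraries). Galactose both switches the carbon source and cuts the DNA in this design, so these effects cannot be told apart. The 4 input samples were not analysed here.

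Yeast ribosomal protein genes are among the most heavily transcribed genes of a growing cell. The factors Rap1, Fhl1 and Ifh1 act at most of their promoters, and their output follows growth signals through the TORC1 and protein kinase A pathways. Many are present as A and B copies that encode identical or nearly identical proteins. Rpb1 travels along a gene during transcription and remains for a stretch past the stop codon before it is released, so a summit can lie anywhere on that path.

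A summit is the highest point of a peak called by the authors. Each member was given the best-scoring summit lying in the gene or within 250 bp of it. The 6 h libraries held 1288 and 1074 summits in all, and the 0 h libraries 1186 and 1194. The depth of sequencing is unknown. A missing summit means only that no called peak had its highest point in that window. Chromatin was sheared to between 100 and 1000 bp per the labels, which limits how finely a summit can be placed. As a check of the treatment, the galactose genes GAL1, GAL10 and GAL2 showed a summit in each 6 h library but none at 0 h.

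An Rpb1 summit was found in at least 1 library at 43 of the 45 placed members. That is 95.6%, against 27.8% of the members on the chromosomes left out. The chromosomes were chosen after seeing the data, so the presence of members is not independent of that choice. In the 6 h libraries 37 and 34 of the 45 members had one, against 41 and 42 in the 0 h libraries. Both 6 h libraries had a summit at 33 members, where the share over all genes was 17.2%, and both 0 h libraries at 41 members, where it was 15.5%. The 33 members were present in all 4 libraries, against 9.88% of all genes. No member was gained (summits in each 6 h library but none at 0 h), while 4.31% of all genes were. By the opposite rule 4 members were lost, RPL6B, RPL13B, RPL38 and RPP2A, against 3.06% of all genes and 19.7% of those with a summit in both 0 h libraries. This count depended on the window and on 1 library, with 0 lost within 500 bp, 14 with the gene body alone and 8 without 6 h replicate 1. A further 6 members (RPL12A, RPL15A, RPL20A, RPL31B, RPL33A and RPL36A) had a mixed pattern and 2, RPL15B and RPL40B, had no summit in any library, compared with 67% of all genes.

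The summits of the members ranked high in every library. Scores are −log10 values given by the peak caller and were not normalized between libraries, so ranks were read within each library only. The median member scored above 89.8% and 89.3% of the summits in 6 h replicates 1 and 2, and above 87.9% and 87.3% in 0 h replicates 1 and 2. No member ranked below 67.1% and 68.2% at 6 h or below 69.8% and 68.8% at 0 h. Among the 50 best summits of each library, 6 and 4 belonged to members at 6 h and 6 and 6 at 0 h.

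RPL9B had the highest average rank of the members, above 99.1% and 98.5% of summits at 6 h and above 99.7% and 99.5% at 0 h. RPL10, whose protein sits close to the peptidyl transferase centre and joins the particle late, ranked 33 and 30 at 6 h and 31 and 30 at 0 h. RPL3, encoding another protein close to that centre, ranked 6 and 25 at 6 h and 45 and 52 at 0 h. All 3 genes were among the best 52 summits of every library. RPL15A ranked 65 in 6 h replicate 1 and 27 and 35 at 0 h. The lowest-ranked summits belonged to RPL18B, at 67.1% in 6 h replicate 1, and to RPL23A in each of the other libraries.

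The position of the summit along the gene separated the time points. On a scale where the start codon is 0 and the stop codon 1, the median member lay at 1.13 and 1.09 in 6 h replicates 1 and 2, against 0.73 and 0.60 in 0 h replicates 1 and 2. The means were 1.11 ± 0.022 at 6 h and 0.66 ± 0.092 at 0 h (SD, n = 2 each), a difference of 0.45 that was larger than the spread between replicates. With all summits shifted by 250 bp in genome direction, the difference was 0.30 (up the chromosome) and 0.17 (down). With 2 libraries a group, the smallest p that an exact two-sided permutation test allows is 0.333. Summits past the stop codon were found at 25 of 37 and 26 of 34 members at 6 h, against 12 of 41 and 9 of 42 at 0 h. Over all genes with a summit the share was 47.7% and 51.4% in 6 h libraries, against 37.9% and 33.1% in 0 h libraries. Before the midpoint of the gene lay 1 and 1 member summits at 6 h and 13 and 19 at 0 h.

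**Figure D1:**
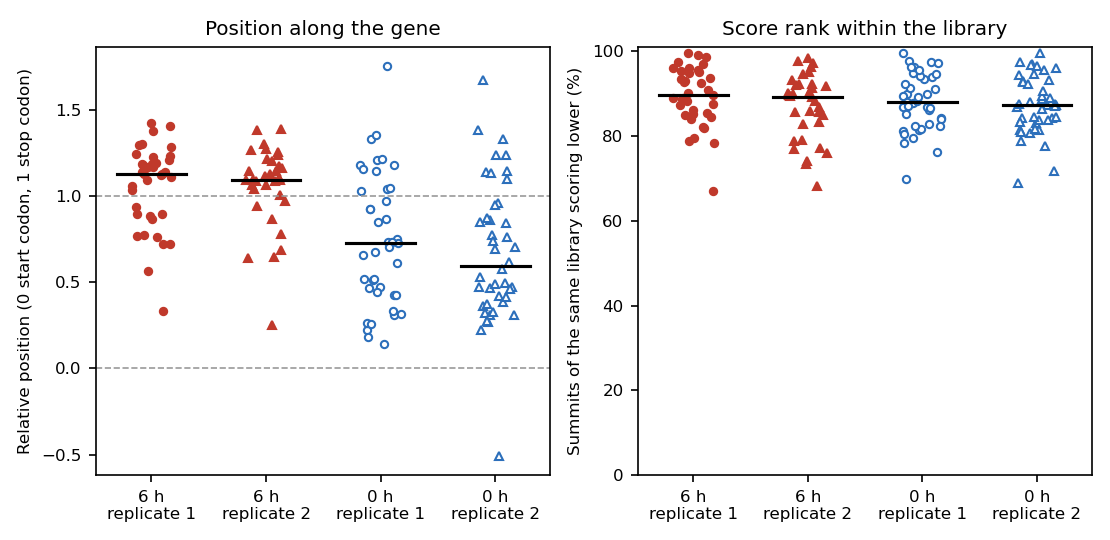
Left, relative position of the best summit of each large-subunit gene in 6 h replicates 1 and 2 and 0 h replicates 1 and 2, with dashed lines at the start codon (0) and the stop codon (1). Right, percentage of summits of the same library that score lower. Each point is a gene and bars are medians. The 6 h medians of 1.13 and 1.09 lie past the stop codon and the 0 h medians of 0.73 and 0.60 before it, while rank medians run from 87.3% to 89.8%.

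Placement of genes carries an error that bears on distances to a codon but not on the distance between summits of the same gene. Averaged over both strands, member summits lay -11.3 bp from the middle of the gene in genome direction. On single chromosomes this average reached 274 bp (XV) and 220.5 bp (XIII), each from few genes. Distances from a start or stop codon may therefore be off by that order, and the choice of summits that fall in a window depends on it too. For small-subunit ribosomal protein genes the same average was 19.5 bp on XV and 175.75 bp on XIII, the latter with 1 Crick value. How much of these averages is placement error was not tested.

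In the 33 members with a summit in all 4 libraries, the summit lay further downstream at 6 h. The displacement, the mean distance from the start codon at 6 h minus that at 0 h, had a median of 339.5 bp, with quartiles of 142 and 480.5 bp and a range of -17.5 to 735 bp. Over all 339 genes present in all 4 libraries the median was 84.5 bp. The 6 h mean was downstream of the 0 h mean in 32 of the 33, against 70.2% of all genes. In 24 members each 6 h summit was downstream of each 0 h summit, where the share over all genes was 40.7%. The reverse order was found in 0 members and in 10.3% of all genes, and the positions overlapped in 9 members. Single 6 h libraries lay a median of 235 to 352 bp downstream of single 0 h libraries. Between replicates the median signed difference (replicate 1 minus replicate 2) came to -2 bp at 6 h and 5 bp at 0 h.

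**Figure D2:**
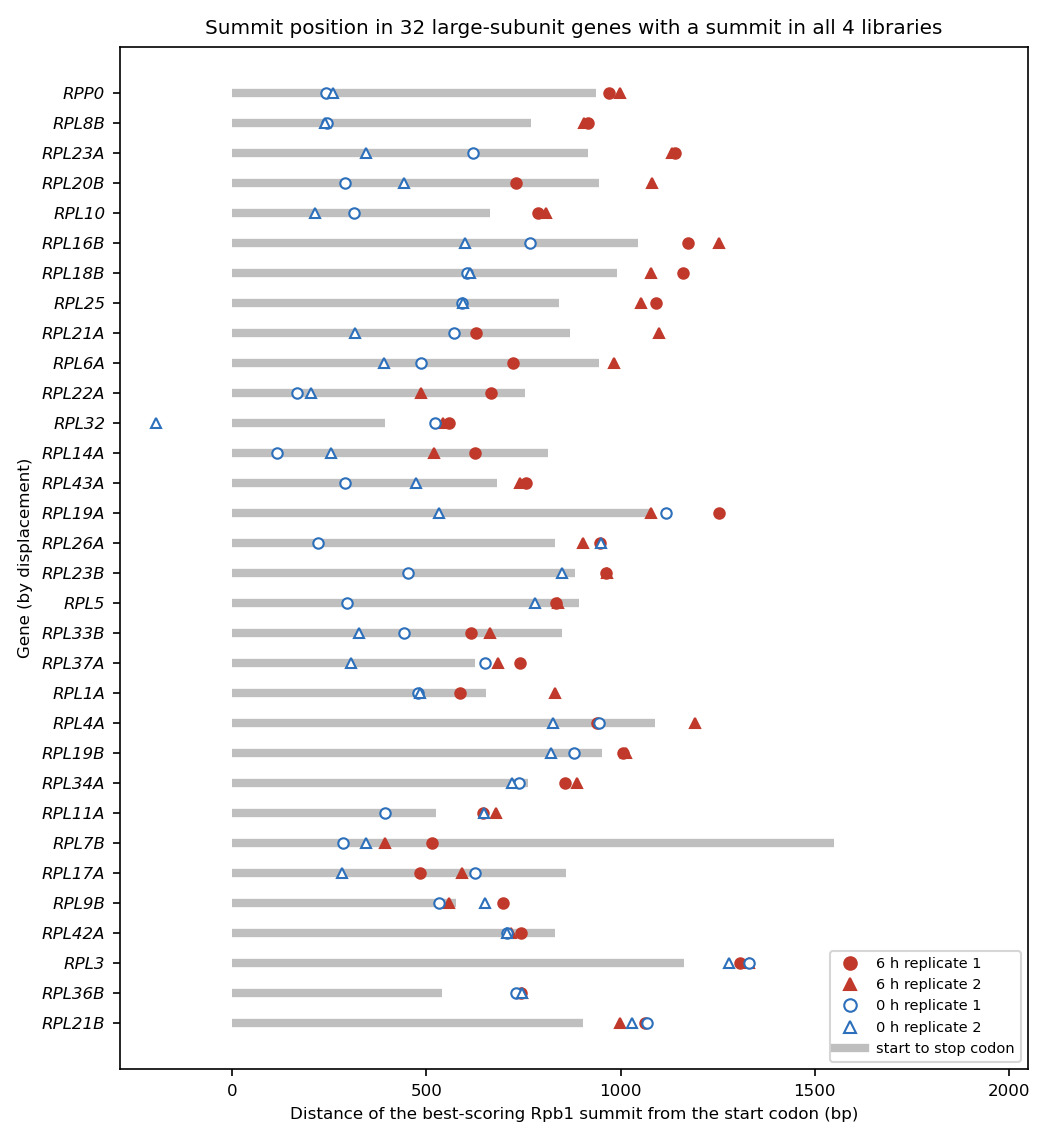
Distance of the best-scoring Rpb1 summit from the start codon in bp for 32 of the 33 large-subunit genes with a summit in all 4 libraries, ordered by displacement. Filled symbols are 6 h and open symbols 0 h libraries, circles replicate 1 and triangles replicate 2, and grey bars run from the start to the stop codon. The 6 h summits lie to the right of the 0 h summits in 23 of these genes, from RPP0 with a displacement of 735 bp at the top to RPL21B with -17.5 bp at the bottom.

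A limma fit of the distances over all 339 genes called 6 members as displaced downstream and 0 upstream (Benjamini-Hochberg adjusted p under 0.05), against 5.31% of all genes called. Without adjustment 15 members had a limma p under 0.05, each with a downstream displacement, where the share over all genes was 17.7% downstream and 20.1% in either direction. The 6 calls needed all 4 libraries, since no member call held with any library left out, which leaves 1 library at that time point. Some genes other than members were still called when either 0 h replicate was left out. With 1 library left out, the median displacement of members was 291.5 to 314 bp. Pairing libraries by number gave 0 called members (9 with an unadjusted limma p under 0.05) and 0% of all genes called. In the called genes replicates lay at most 82 bp apart at 6 h and 100 bp apart at 0 h, with displacements of 480.5 to 735 bp.

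Of the stalk genes, RPP0 encodes the protein that anchors the stalk, where elongation factors bind. Its summit was 970 and 998 bp into the gene region at 6 h, counted from the start codon, against 240 and 258 bp at 0 h. This was the largest displacement of the 33 (735 bp, SE 45.0, limma adjusted p = 0.0211). The 6 h summits were 32 and 60 bp past the stop codon, and the 0 h summits well inside the gene. RPP2A, for an acidic stalk protein, had its nearest 6 h summits 317 and 348 bp past the stop codon, outside the window. Its 0 h summits lay at 49 and -172 bp on the same scale, on which positive values are past the stop codon. RPL12A, for a protein at the base of the stalk, had a summit in 0 h replicate 2 only, 164 bp past the stop codon, and in the other libraries the nearest lay 589 to 641 bp past it.

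RPL10 and RPL3 both encode proteins close to the catalytic centre. RPL10 had summits at 787 and 809 bp at 6 h, against 313 and 213 bp at 0 h, and was called (535 bp, SE 59.6, limma adjusted p = 0.0499). The same summit was also the best one of the downstream neighbour FMP25 in at least 1 library. RPL3, the longer of these genes, had summits 1309 and 1332 bp from the start at 6 h and 1330 and 1279 bp at 0 h. All 4 lay past the stop codon, and the displacement of 16 bp was within the gap between replicates.

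RPL5 and RPL11A encode the proteins that bring 5S ribosomal RNA into the particle. RPL5 had summits at 835 and 839 bp at 6 h, against 295 and 780 bp at 0 h. RPL11A had summits at 646 and 680 bp at 6 h, against 394 and 648 bp at 0 h. In both genes the 0 h replicates lay far apart, and neither was called (limma adjusted p = 0.573 and 0.581).

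Among genes of proteins lining or surrounding the exit tunnel for the nascent chain, RPL25 had close replicates. RPL25, whose protein is a docking site for the signal recognition particle, had summits at 1092 and 1054 bp at 6 h, against 591 and 594 bp at 0 h (480.5 bp, SE 45.6, limma adjusted p = 0.0429). RPL4A had summits at 940 and 1191 bp at 6 h, against 945 and 827 bp at 0 h. RPL17A had summits at 484 and 592 bp at 6 h, against 624 and 282 bp at 0 h, so that its time points overlapped, as did those of RPL4A. RPL31B had 1 summit in the window at 6 h, 207 bp past the stop codon in replicate 1. The replicate 2 summit lay 314 bp past it, and the 0 h summits lay at 124 and -110 bp on that scale.

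Calls also included RPL8B and RPL18B, which encode structural proteins of the large subunit. RPL8B had summits at 915 and 905 bp at 6 h, against 244 and 239 bp at 0 h (668.5 bp, SE 43.2, limma adjusted p = 0.0217). In RPL18B they lay at 1160 and 1078 bp at 6 h, against 604 and 611 bp at 0 h (511.5 bp, SE 54.3, limma adjusted p = 0.0486). RPL8B had a stretch of 395 bp before the next gene downstream and RPL18B 626 bp, and their 6 h summits lay 86 to 168 bp past the stop codon. The gene downstream of RPL18B is RPS19B, a small-subunit gene in the same orientation.

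Some genes had displacements of this size without passing the threshold, and their 0 h replicates lay further apart than those of the called genes. RPL23A had summits at 1140 and 1133 bp at 6 h, against 621 and 343 bp at 0 h (654.5 bp, SE 121, limma adjusted p = 0.143). RPL20B had summits at 731 and 1082 bp at 6 h, against 291 and 443 bp at 0 h (539.5 bp, SE 162, limma adjusted p = 0.237). In both genes the time points did not overlap. RPL16B had summits at 1175 and 1254 bp at 6 h, against 766 and 600 bp at 0 h, with a displacement of 531.5 bp (SE 85.8, limma adjusted p = 0.119).

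At the other end, RPL21B (-17.5 bp), RPL36B (6 bp), RPL3 (16 bp), RPL42A (23.5 bp) and RPL9B (35.5 bp) had the smallest displacements. RPL36B had summits at 743 and 746 bp at 6 h, against 731 and 746 bp at 0 h. RPL42A, whose protein lines the site that cycloheximide occupies, had summits at 743 and 719 bp at 6 h, against 707 and 708 bp at 0 h. RPL21B had summits at 1063 and 998 bp at 6 h, against 1067 and 1029 bp at 0 h. RPL21B, RPL36B and RPL3 were also the 3 members with a summit past the stop codon in all 4 libraries. Summits lay before the stop codon in all 4 libraries in 7 members. These were RPL5, RPL7B, RPL14A, RPL17A, RPL22A, RPL33B and RPL42A.

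In 12 members both 6 h summits lay past the stop codon and both 0 h summits before it, where the share over all 339 genes was 9.73%. The opposite was found in 0 members and in 1.47% of all genes. They included RPP0, RPL8B, RPL10, RPL16B, RPL18B, RPL19B, RPL23A, RPL23B, RPL25, RPL34A and RPL43A. Both 6 h summits lay past the stop codon in 20 members, against 3 members with both 0 h summits there. Over all genes these shares were 36.3% at 6 h and 21.5% at 0 h. These counts rest on where the stop codon is placed. With all summits shifted by 250 bp up or down the chromosome, 25 members had a summit in all 4 libraries, and 2 (up) and 3 (down) of them had both 6 h summits past the stop codon and both 0 h summits before it, against 6.27% (up) and 2.66% (down) of all genes. With positions as deposited, in 0 of the 20 were both 6 h summits inside the next gene downstream. For most of the 20 the window fixed this outcome. A next gene more than 250 bp past the stop codon could not hold a summit taken for the member.

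In these genes 6 h replicates lay a median of 42 bp apart and 0 h replicates 115 bp apart. Over all 339 genes the same gap measured 78 bp between 6 h and 96 bp between 0 h replicates. Gaps above 300 bp occurred in 2 members at 6 h (RPL20B and RPL21A) and in 7 at 0 h (RPL5, RPL17A, RPL19A, RPL23B, RPL26A, RPL32 and RPL37A). Over all 339 genes, such gaps occurred in 61 at 6 h and in 69 at 0 h, so the 0 h count of members was near the general rate. In RPL26A the 0 h summits lay at 220 and 951 bp, the second of these beyond the 6 h summits at 946 and 904 bp. In RPL32 the summit of 0 h replicate 2 lay at -198 bp, before the start codon, and that of replicate 1 at 521 bp. It was the only member summit upstream of a gene. The 6 h summits of RPL32 lay at 557 and 543 bp.

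**Figure D3:**
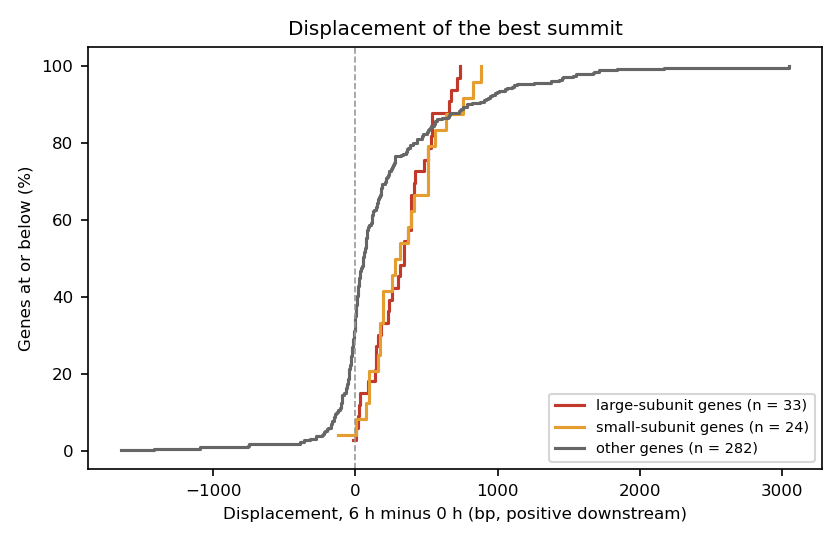
Cumulative share of genes (y axis, %) by displacement of the best summit in bp, 6 h minus 0 h, for 33 large-subunit genes, 24 small-subunit genes and 282 other genes with a summit in all 4 libraries. The curves of both ribosomal groups lie to the right of the other genes up to about their upper quartiles, with medians of 339.5 bp and 297.5 bp, and the other genes extend further on both sides.

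Small-subunit ribosomal protein genes, the most similar group, gave like values. Of 35 placed genes named RPS, 24 had a summit in all 4 libraries. Their median displacement was 297.5 bp, beside 339.5 bp in large-subunit genes, and 19 of the 24 had each 6 h summit downstream of each 0 h summit. The limma fit called 4 of the 24. The difference between the subunits was not tested.

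Of 12 listed regulators of ribosomal protein genes, 8 were placed, and 4 of these (RAP1, FHL1, SFP1 and TBF1) had no summit in any library. TOD6, encoding a repressor of ribosome biogenesis genes, had 6 h summits with scores of 7.69 and 12.7 and none at 0 h. Its relative DOT6 had summits in all 4 libraries, at 766 and 2190 bp at 6 h and at -83 and -65 bp, before the start codon, at 0 h. The DOT6 scores at 6 h were 3.96 and 4.32, under the library medians of 7.24 and 9.75, and these summits lay 1424 bp apart. IFH1 and ABF1 had a summit in 1 library each, both at 6 h, with scores of 3.48 (replicate 2) and 6.69 (replicate 1), also under those medians.

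In 8 of the 10 lost or mixed members, a 6 h summit lay past the window on the downstream side, within 500 bp of the stop codon. At RPL6B the 6 h summits lay 255 and 255 bp past the stop codon, against 196 and 216 bp at 0 h. At RPL13B they lay 265 and 264 bp past it at 6 h, against 207 and -472 bp at 0 h. At RPL38 they lay 445 and 445 bp past it at 6 h, against 177 and 159 bp at 0 h. These distances straddle the 250 bp limit, as do those of RPL15A, at 250 and 273 bp at 6 h, and of RPL33A, at 241 and 255 bp at 6 h. RPL25, at 250 and 212 bp, was just inside.

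With the window widened to 500 bp, 42 members had a summit in all 4 libraries, against 14.8% of all genes, and 0 were lost. Each 6 h summit was downstream of each 0 h summit in 32 of the 42, where the share over all genes was 39.8%. The 9 members that entered with the wider window included 8 with that order. Of these 8, RPL13B, RPL31B, RPL38 and RPP2A had both 6 h summits beyond the gap to the next gene downstream. At RPL38 the 6 h summits lay 445 bp past the stop codon, where the gap is 356 bp. The next gene there, PEX30, had a displacement of -277 bp with the 250 bp window, beside 277 bp in RPL38 with 500 bp. To which gene such summits belong was not tested. RPL20A had summits at 1219 and 1275 bp at 6 h, against 462 and 461 bp at 0 h, and RPL33A at 1089 and 1103 bp at 6 h, against 377 and 398 bp at 0 h. The ninth, RPL40B, makes its ribosomal protein as a fusion with ubiquitin. Its nearest summits lay 395 and 369 bp past the stop codon at 6 h and 403 and 369 bp past it at 0 h.

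**Figure D4:**
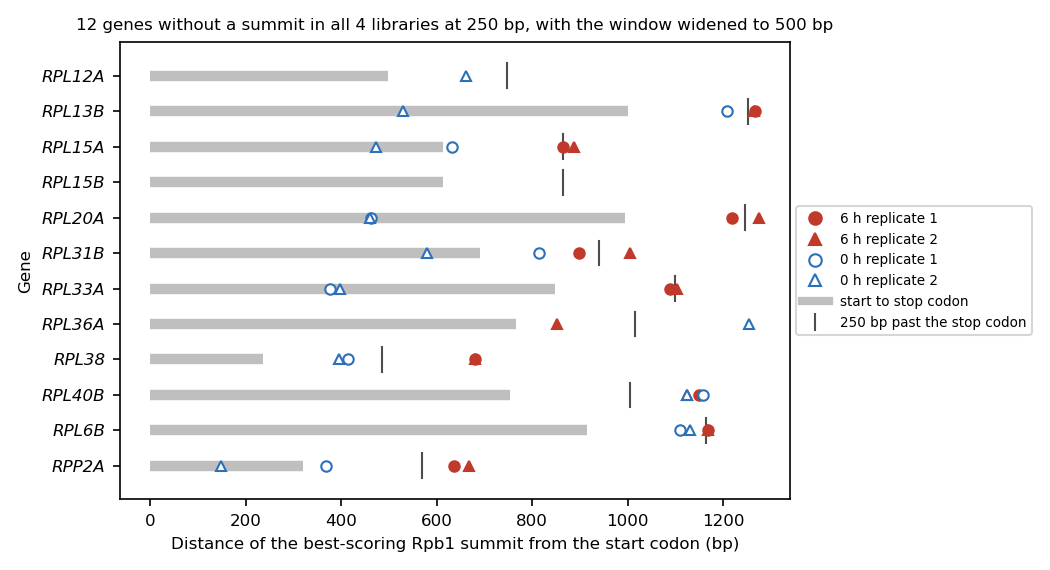
Distance of the best-scoring summit from the start codon in bp, with the window widened to 500 bp, for the 12 large-subunit genes that did not have a summit in all 4 libraries at 250 bp. Filled symbols are 6 h and open symbols 0 h libraries, circles replicate 1 and triangles replicate 2. Grey bars run from the start to the stop codon and ticks mark 250 bp past it. At RPL38 both 6 h summits lie 445 bp past the stop codon, to the right of the tick.

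RPL15B, RPL36A and RPL12A still lacked a summit in at least 1 library. RPL15B had its nearest 6 h summits 1532 and 1479 bp upstream of the gene, and its nearest 0 h summits 1054 and 1076 bp upstream of it. RPL36A had a summit 87 bp past the stop codon in 6 h replicate 2, and 488 bp past it in 0 h replicate 2.

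Both copies of a gene were placed in 9 pairs, and 4 of these had the same presence in every library (RPL19, RPL21 and RPL23 among them). How far reads of near-identical copies could be assigned to either is not given in the sources used here, so values of copies are uncertain where their sequences match. The clearest contrast was RPL15, where RPL15A had summits in 3 libraries ranking above 95.0% at 6 h and above 97.7% and 97.1% at 0 h, while RPL15B had none. In RPL36 the B copy had a summit in all 4 libraries and the A copy in 1. In RPL6 the A copy was present throughout and the B copy lost. In RPL20 and RPL33 the A copy lacked a summit in 6 h replicate 2, where it lay 280 and 255 bp past the stop codon.

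The size of the displacement differed between copies of RPL19, RPL21 and RPL23, which had a value for both. It was 654.5 bp in RPL23A and 313 bp in RPL23B, and 342.5 bp in RPL19A and 159 bp in RPL19B. RPL21A had 419.5 bp and RPL21B -17.5 bp. RPL21A had summits at 628 and 1099 bp at 6 h, against 572 and 316 bp at 0 h, so its 6 h replicates lay 471 bp apart. The A copy had the larger value in each of these 3, and the difference between copies was not tested.

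**Figure D5:**
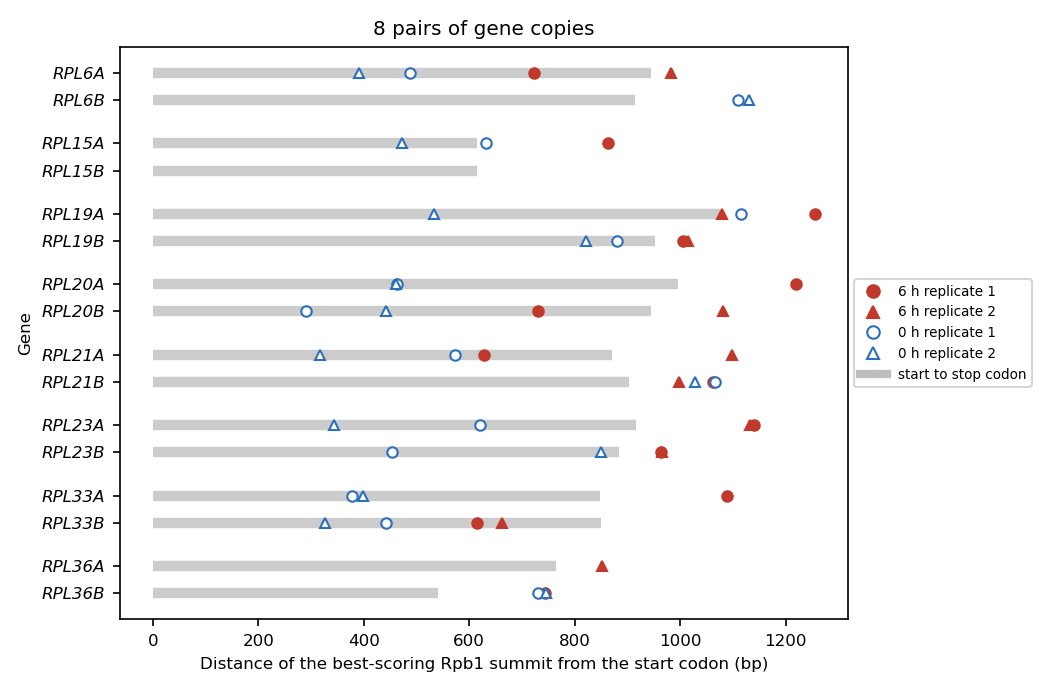
Distance of the best-scoring summit from the start codon in bp for both copies of 8 of the 9 gene pairs, with a window of 250 bp. Filled symbols are 6 h and open symbols 0 h libraries, circles replicate 1 and triangles replicate 2, and grey bars run from the start to the stop codon. RPL15B has no symbol, and RPL36A has 1 against 4 in RPL36B.

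The displacement was found on both strands, with a median of 299.5 bp in 21 genes of the Watson strand and 462.5 bp in 12 of the Crick strand. It was 328 bp in 12 genes whose next gene downstream is convergent and 339.5 bp in 21 whose next gene is in tandem. Across the 33 genes it had little relation to the annotated span, with Pearson's r of 0.071 and Spearman's rho of 0.15 as descriptions over genes that share the same libraries. Genes whose 0 h mean lay before the midpoint had a median displacement of 413.5 bp (n = 11), against 230 bp (n = 22) in the others. The displacement is itself computed from the 0 h mean, so this split is not independent of it. In 18 of the 45 members the best summit was also the best summit of a neighbouring gene in at least 1 library, and its assignment to either was not tested. Sharing was not particular to members, since leaving out such genes kept 19 of the 33 members and 182 of the 339 genes.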

How the data were processed

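Rpb1 chromatin immunoprecipitation gave a list of peak summits per library, 2 at 6 h and 2 at 0 h, with replicates not pooled. The submitters' processing notes name MACS2 2.2.7.1, SAMtools 1.10, Bowtie2 2.2.4 and fastp 0.20.1 without their roles. How peaks were thresholded, on which build, and whether inputs served as control is not given in the sources used here. Per summit, the authors deposited a score on the −log10 scale (p-value or q-value, which is not stated), not normalized between libraries. It served only to choose and rank summits within a library. Each deposited summit position is a single base. Read depth is unknown, and no fold change of occupancy can be had.

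Names and spans of genes were taken from RefSeq (assembly R64), with strand from the locus tag. The span includes introns. Since no build is stated, no coordinates are printed. Of members on the chromosomes used 95.6% had a summit in any library, against 27.8% of those elsewhere, and the other chromosomes were left out after seeing the data. Chromosome VI was among those left out, although 3 of its 3 members had a summit in any library. No genome, promoter or protein sequences were used here, so the planned search for 3 promoter motifs was not run.

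Distances from the start codon were fitted with limma 3.58.1 in R 4.3.3 (6 h minus 0 h, robust empirical Bayes, Benjamini-Hochberg over 339 genes), after a check on simulated data. The simulated noise was normal and set from the 6 h replicate gaps alone. Gaps above 300 bp, which these data have at both times, were thus hardly represented, and the check does not cover genes with such gaps. Summaries and figures used Python 3.11.15, NumPy 2.4.6, SciPy 1.17.1 and matplotlib 3.10.9. Named genes were members gained, lost or absent, those called by limma, the 5 largest and 5 smallest displacements, the 5 highest ranks and pairs that differ in presence, and others were added after their values were seen. A gene that meets these rules is not reported here, though counts and medians include it. The members and lists were chosen with earlier results of these data known. Alternatives were windows of 0 and 500 bp, the better-scoring 50% of summits, leaving out each library, the replicate block, the summit nearest to the middle, genes not sharing a summit, and relative position.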

Additional observations from a re-analysis of the deposited data

How the results depend on the processing

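Of 107 alternative values, 79 kept within 1.5 times (counts), 1 SD between replicates (positions) or 1 SD between genes (ranks), 28 moved and 0 reversed. Some of the 79 could not have moved. No member summit ranked below 67.1%, so keeping the better-scoring 50% could not alter member presence or position. With 0 members holding several summits in the 250 bp window, the summit nearest to the middle was the same summit. These values are no sign of robustness. With the gene body alone, 7 members were present in both 6 h libraries and 26 in both 0 h libraries, and 14 were lost. The median displacement of the 7 was 254.5 bp. Of these 7, 6 had both 6 h summits downstream, and the share over all genes in that setting is not given here. Limma called 0 of the 7 (2 unadjusted), against 0.90% of 111 genes. Summits past the stop codon fall outside the gene body. With 500 bp, 0 were lost and 7 pairs had the same presence. Without each library in turn, losses ranged from 4 to 8, gains from 0 to 1 and the median displacement from 291.5 to 314 bp. No limma call of a member held in these fits, where the lone library of a time point was assumed to vary like the other group. Some other genes were still called when either 0 h replicate was left out. The 8 losses and the gain, RPL36A, came without 6 h replicate 1. Without genes that share a best summit, 15 of 19 remaining members were downstream. The share over the 182 genes left in that setting is not given here. All summits were also shifted by 250 bp in genome direction, chosen after seeing the data. Shifted up, they gave 7 lost members, a relative position difference of 0.30, 2 pairs with the same presence, 5 members with both 6 h summits past the stop codon and 2 that also had both 0 h summits before it. Shifted down, they gave a median displacement of 254.5 bp, a relative position difference of 0.17, 3 members with both 6 h summits past the stop codon, all 3 with both 0 h summits before it, and 0 with both 0 h summits past it. Both time points have replicates numbered 1 and 2, whose same-numbered deviations correlated at 0.021 over 339 genes, and the numbers were taken as names only. With a replicate block, means within same-numbered pairs were 6.5 lost and 0.5 gained members, and limma called 0 members (9 unadjusted) and 0% of all genes. For the rest of these changes, the cause was not tested. Leaving out chromosome XV, also chosen after seeing the data, moved no displacement result.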
